A study of Mus musculus with 8 samples.

Results

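miR-7 and miR-671 are the small RNA partners of 2 long noncoding RNAs of the brain, and 4 of their strands were followed here: mmu-miR-7a-5p and mmu-miR-7b-5p, the guide strands of the miR-7 family, and mmu-miR-671-5p and mmu-miR-671-3p, the strands of both arms of the miR-671 hairpin. The members were all read sequences that carried 1 of these 4 names, which gave 67 of the 47204 distinct sequences in the table and 4 of its 895 miRNA names. There were 25 sequences of miR-7a-5p, 13 of miR-7b-5p, 15 of miR-671-5p and 14 of miR-671-3p. RISC-bound small RNAs (R-sRNAs), the guide RNAs held by Argonaute (Ago) proteins, were captured with a GW182 peptide from combined cortex and hippocampus and sequenced in 8 libraries, each from a different mouse. Of these, 4 mice were 5XFADtg Rubicon+/- and 4 were 5XFADtg Rubicon-/-, so that all 8 carried the 5XFAD transgene, used to model amyloid plaques of Alzheimer's disease, and the controls lacked 1 copy of Rubicon, a gene of the autophagy pathway. The mice were females of a mixed C57BL/6J and SJL background, described as 6 months old in one place and as 6 or 8 months old in another, and the labels do not give the age of each mouse. The Rubicon+/- group is in one place described as 3 mice, and figure legends give averages of 3 samples for this comparison. The labels give 4 libraries of each genotype, all of which were used. No library came from a mouse without the transgene or with both copies of Rubicon, and small RNA reads do not measure the Rubicon transcript.

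miR-7 is an ancient miRNA of neurons and endocrine cells. In brain it is tied to a circuit of noncoding RNAs: the circular RNA Cdr1as carries a dense array of miR-7 sites, and the long noncoding RNA Cyrano binds miR-7 with extensive pairing to both ends of the guide and directs its degradation, a process in which the 3′ end of the guide is exposed and can be lengthened or shortened by cellular enzymes. miR-671-5p directs Ago to slice Cdr1as, and so links both miRNAs. Levels and 3′ ends are therefore the readouts in which this circuit is usually studied, and both were read from the Ago-bound strands.

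The mature sequences of the 4 members, credited to RefSeq (GRCm38.p6), are shown because the seeds and the position of the difference between both miR-7 guides recur in the results. Capitals mark the seed, bases 2 to 8.
miR-7a-5p: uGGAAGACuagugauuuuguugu
miR-7b-5p: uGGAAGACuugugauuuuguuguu
miR-671-5p: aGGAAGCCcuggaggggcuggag
miR-671-3p: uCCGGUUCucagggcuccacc
miR-7a-5p and miR-7b-5p share their seed and differ over the 23 bases that both have by a single substitution, A10U, counted from the 5′ end. That base lies inside every read of either name, so reads of both guides carry different letters. miR-7a-5p comes from 2 hairpins with the same guide and different 3′ arms. Mir7-1 lies on chromosome 13 (58392779 to 58392886, minus strand, GRCm38), within an intron of Hnrnpk on the same strand, and Mir7-2 on chromosome 7 (78888277 to 78888373, plus strand), with no other annotated gene across it. Mir7b lies on chromosome 17 (56242988 to 56243098, plus strand), also with no other gene across it. Mir671 lies on chromosome 5 (24592114 to 24592211, plus strand), inside a coding exon of Chpf2 on the same strand and opposite a retained-intron transcript of Smarcd3. The seed of miR-671-5p differs from that of miR-7 within the first 6 seed bases by A6C, counted from the first base of the seed.

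Library depth, recovered from the deposited values as whole reads, ranged from 509839 to 2634450 reads in the 4 Rubicon+/- libraries and from 1010177 to 19878054 in the 4 Rubicon-/- libraries, and the 2 libraries over 5000000 reads were both Rubicon-/-. The members took between 283 and 11014 reads of a library. miRNAs of neurons summed to 153778 to 196821 CPM (reads per 1000000 reads) in Rubicon+/- and 150911 to 252535 CPM in Rubicon-/- libraries. miRNAs of epithelium, 5 of 5 found and none at 0, summed to 1910 to 6490 CPM in Rubicon+/- and 210 to 746 CPM in Rubicon-/- libraries, and their part in the comparisons of genotypes was not tested. The neuroendocrine miRNA miR-375-3p was at 48.8 to 86.9 CPM in Rubicon+/- and 46.1 to 87.2 CPM in Rubicon-/- libraries.

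Of the 4 members, miR-7a-5p was the most abundant, at 298 ± 102 CPM (SD, n = 8), place 195 among the 895 names by mean. Its level in the 4 Rubicon+/- libraries was 390.0, 457, 227 and 185 CPM, and in the 4 Rubicon-/- libraries 282, 372, 303 and 171 CPM. The highest library was Rubicon+/- replicate 2 and the lowest Rubicon-/- replicate 4, with the ranges of the genotypes overlapping over most of their length. The lowest of these values rested on 175 reads and the highest on 664 (95% Wilson intervals 148 to 199 and 423 to 493 CPM, counting error only).

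miR-7b-5p, the paralog from the Mir7b hairpin, was at 115 ± 30.3 CPM (SD, n = 8). It stood at 129, 166, 89.7 and 81.5 CPM in the Rubicon+/- libraries and at 122, 137, 118 and 78.4 CPM in the Rubicon-/- libraries. The same 2 libraries were the highest and the lowest as for miR-7a-5p, and the genotypes again overlapped.

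The 2 miR-7 guides varied together across mice. Over the 8 libraries, log2(CPM + 1) of miR-7a-5p and miR-7b-5p had a Pearson r of 0.98 (exact permutation p = 0.000124, adjusted p = 0.000744 over 6 pairs of members) and a Spearman rho of 0.95 (exact permutation p = 0.00114, adjusted p = 0.00685). Without the 2 libraries farthest from the median of miR-7a-5p, r was 0.95, and with each genotype centred on its own mean it was 0.98. The ratio of miR-7a-5p to miR-7b-5p accordingly stayed between 2.19 and 3.01, with a mean of 2.54 ± 0.28 (SD, n = 8), while the level of miR-7a-5p itself spanned 171 to 457 CPM. miR-7a-5p was above miR-7b-5p in 8 of 8 libraries.

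**Figure D1:**
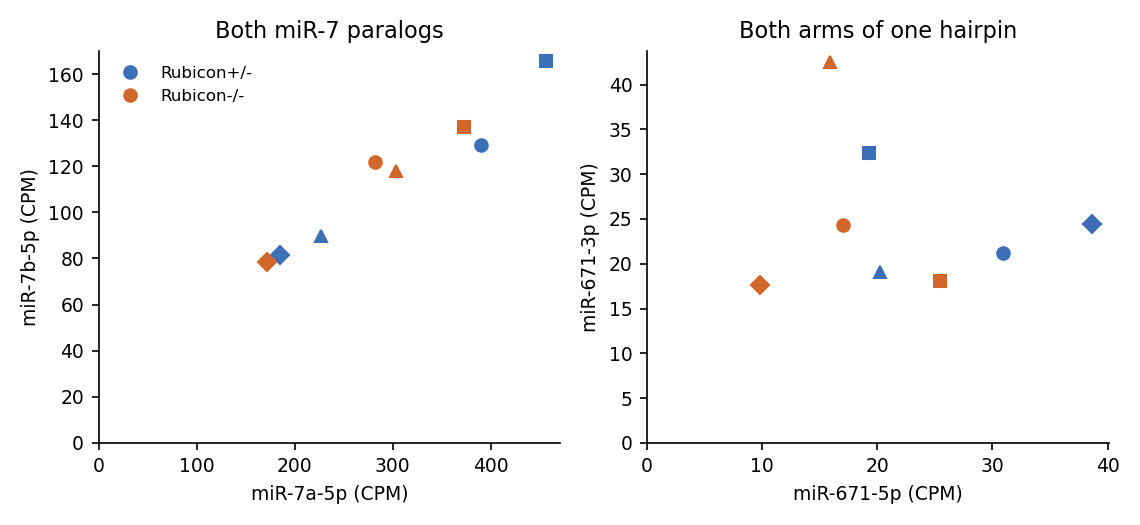
Levels of paired strands in the 8 libraries, in CPM on linear axes, with 1 point per library coloured by genotype and shaped by replicate number. On the left miR-7b-5p follows miR-7a-5p along a line (Pearson r 0.98 on the log2 scale), and on the right miR-671-3p shows no such relation with miR-671-5p (r of -0.05).

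miR-671-5p, the strand that guides slicing of Cdr1as, was scarcer, at 22.1 ± 9.18 CPM (SD, n = 8). Its level was 30.9, 19.3, 20.2 and 38.7 CPM in the Rubicon+/- libraries and 17.0, 25.4, 15.9 and 9.80 CPM in the Rubicon-/- libraries. The 2 highest libraries were Rubicon+/- and the lowest 3 were Rubicon-/-, but Rubicon-/- replicate 2, at 25.4 CPM, lay above 2 of the Rubicon+/- libraries. The lowest value rested on 10 reads (95% Wilson interval 5.32 to 18.0 CPM) and that of Rubicon+/- replicate 1 on 16 reads.

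miR-671-3p, the other arm of the same hairpin, was at 24.9 ± 8.57 CPM (SD, n = 8). It was at 21.2, 32.3, 19.0 and 24.4 CPM in Rubicon+/- and at 24.3, 18.1, 42.5 and 17.6 CPM in Rubicon-/- libraries. The highest value, in Rubicon-/- replicate 3, and the lowest, in Rubicon-/- replicate 4, came from the same genotype. The ratio of miR-671-5p to miR-671-3p ran from 0.374 to 1.58 and was above 1 in 4 of 8 libraries, so the order of both arms did not hold beyond the spread between mice. Their Pearson r over the 8 libraries was -0.05 (exact permutation p = 0.911, adjusted p = 0.911) and their Spearman rho 0.02 (exact permutation p = 0.977, adjusted p = 0.977). Without the 2 libraries farthest from the median of miR-671-5p, Rubicon-/- replicate 4 and Rubicon+/- replicate 4, r was -0.66.

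None of the 4 remaining pairs, a miR-7 guide with a miR-671 arm, reached the threshold. Their Pearson r lay between 0.14 and 0.39, with exact permutation p of 0.339 to 0.751 and adjusted p of 0.814 to 0.901, and their Spearman rho between 0.21 and 0.38, with adjusted p of 0.743 for all 4. Without the 2 libraries farthest from the median of the miR-7 guide, r was 0.16 to 0.41. With each genotype centred on its own mean, r of these pairs was 0.16 to 0.39. For both pairs with miR-671-5p the sign was negative among the Rubicon+/- libraries and positive among the Rubicon-/- libraries, over 4 libraries each, which is too few for a correlation, and this difference was not tested.

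The passenger strands of miR-7 are cut from the same hairpins as the guides and are as a rule discarded. miR-7a-1-3p, from Mir7-1, was at 295, 352, 355 and 280.1 CPM in Rubicon+/- and at 241, 340, 307 and 292 CPM in Rubicon-/- libraries, so that this strand was about as abundant in Ago as the miR-7a guide. Its coefficient of variation over the 8 libraries was 12.8%, against 34.3% for miR-7a-5p and 26.3% for miR-7b-5p. The other passenger strands varied more, with miR-7a-2-3p, from Mir7-2, at 54.0 to 135 CPM (coefficient of variation 34.1%) and miR-7b-3p at 3.92 to 13.5 CPM (47.5%). The ratio of miR-7a-5p to the sum of its 2 passenger strands went from 0.452 in Rubicon-/- replicate 4 to 1.01 in Rubicon+/- replicate 2, while miR-7b-5p exceeded miR-7b-3p by 8.68 to 29.9-fold. How well the library kit captures each of these strands was not measured.

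**Figure D2:**
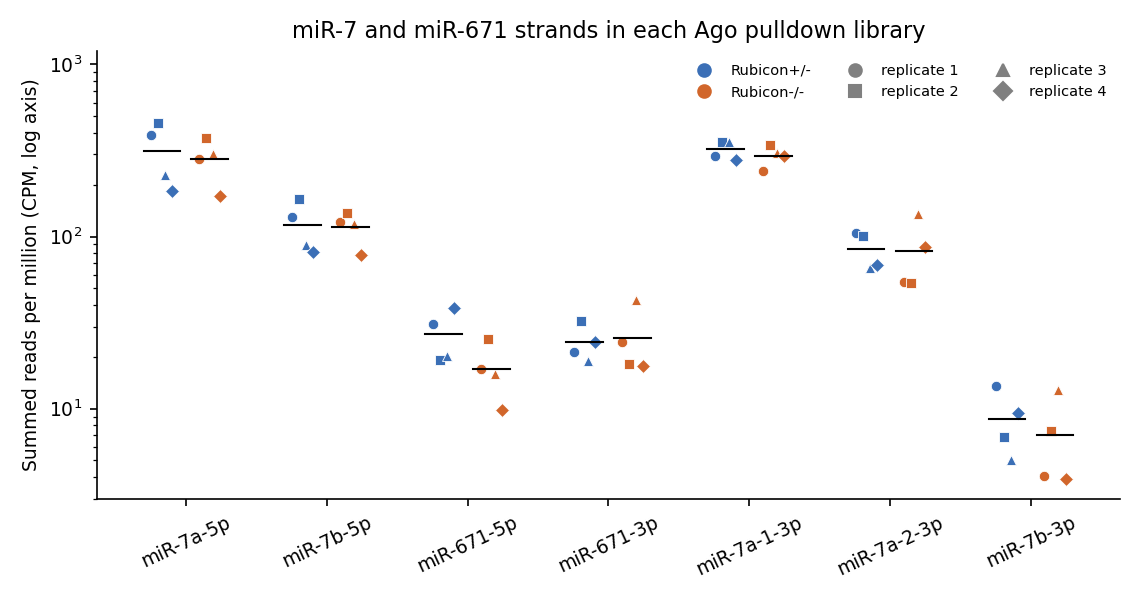
Level of each miR-7 and miR-671 strand in each library, as summed CPM on a log axis, with genotype by colour, replicate number by shape and the group mean as a black bar. The genotypes overlap for every strand, and the points of miR-7a-1-3p lie closer together than those of miR-7a-5p.

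The design asks whether loss of the remaining Rubicon copy in 5XFADtg mice goes with a change of these guides in the RISC. With limma on log2(CPM + 1), 6 of the 463 miRNAs at a mean level of 10 CPM or more passed an adjusted p of 0.05 between Rubicon-/- and Rubicon+/- (1.3% of those tested, all 6 lower in Rubicon-/-), and 0 of the 4 members did. None of the 4 reached an unadjusted p of 0.05 either, against 34 of 463 miRNAs (7.34%). On the recovered reads edgeR called 4 of 463 miRNAs (0.864%) and DESeq2 9 of 463 (1.94%), with 0 of the 4 members in either, so a count of 0 is near the background for any 4 miRNAs. In bulk tissue, fewer cells that hold a miRNA and less of it per cell cannot be told apart.

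The log2 difference, Rubicon-/- minus Rubicon+/-, was -0.11 for miR-7a-5p (SE 0.35, 95% interval -0.86 to 0.63, limma adjusted p = 0.975), with means of 282 ± 83.3 and 315 ± 130 CPM (SD, n = 4 each). It was -0.01 for miR-7b-5p (SE 0.33, interval -0.71 to 0.70, limma adjusted p = 0.9999), with means of 114 and 117 CPM. The widest difference was that of miR-671-5p, -0.66 (SE 0.42, interval -1.58 to 0.26, limma adjusted p = 0.796). Its means were 27.3 ± 9.26 CPM in Rubicon+/- and 17.0 ± 6.42 CPM in Rubicon-/- libraries (SD, n = 4 each). miR-671-3p differed by 0.01 (SE 0.40, interval -0.85 to 0.88, limma adjusted p = 0.999). The sign for miR-7a-5p and miR-7b-5p turned when libraries were centred on their median, which moved the median log2 difference of all 463 miRNAs from -0.09 to 0.13. It also turned for both without Rubicon+/- replicate 1 or 2 or Rubicon-/- replicate 4, and for miR-7b-5p with edgeR (0.10) and DESeq2 (0.12) on recovered reads. The sign of miR-671-3p turned when single libraries were left out.

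Ratios between members do not depend on how a library is scaled. The log2 ratio of miR-671-5p to miR-671-3p was 0.14 ± 0.64 in Rubicon+/- and -0.57 ± 0.80 in Rubicon-/- libraries (SD, n = 4 each, exact permutation p = 0.229, adjusted p = 0.419 over 4 ratios). The log2 ratio of miR-7b-5p to miR-671-5p was 2.10 ± 0.83 against 2.79 ± 0.25 (exact permutation p = 0.143, adjusted p = 0.419), and that of miR-7a-5p to miR-671-5p 3.49 ± 0.95 against 4.08 ± 0.16 (exact permutation p = 0.314, adjusted p = 0.419). With Rubicon+/- replicate 4 left out these 2 differences were 0.35 and 0.17, and with Rubicon+/- replicate 2 left out 1.03 and 0.94 (exact permutation p = 0.0286 and adjusted p = 0.0571 for each). In linear terms, Rubicon-/- libraries held 14.7 to 19.1 reads of miR-7a-5p per read of miR-671-5p, and Rubicon+/- libraries 4.78 to 23.7. The ratio of both miR-7 guides, 1.39 ± 0.18 against 1.29 ± 0.14 on the log2 scale, did not pass the test either (exact permutation p = 0.429, adjusted p = 0.429). With 4 libraries against 4, 70 splits allow no two-sided p below 0.0286.

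The miR-7 guides were among the longest miRNAs in these libraries. The reads of miR-7a-5p are shown with every base after base 20 in capitals, in the DNA letters of the table, from the most abundant to the fifth.
miR-7a-5p read 1: tggaagactagtgattttgtTGTT
miR-7a-5p read 2: tggaagactagtgattttgtTGT
miR-7a-5p read 3: tggaagactagtgattttgtTG
miR-7a-5p read 4: tggaagactagtgattttgtT
miR-7a-5p read 5: tggaagactagtgattttgtTGTTA
The 24 nt read, 1 base longer than the RefSeq mature sequence, made up 50.0% of the summed level of miR-7a-5p, the 23 nt mature sequence 28.9%, the 22 nt read 11.5% and the 21 nt read 3.45%. The fifth read, 1.39% of the total, ends in an A that is not in the hairpin. The share of 24 nt reads was close to level across mice, from 47.5% to 55.0%.

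The leading miR-7b-5p reads had the same ends and are shown in the same way.
miR-7b-5p read 1: tggaagacttgtgattttgtTGTT
miR-7b-5p read 2: tggaagacttgtgattttgtTGT
miR-7b-5p read 3: tggaagacttgtgattttgtTG
miR-7b-5p read 4: tggaagacttgtgattttgtT
miR-7b-5p read 5: tggaagacttgtgattttgtTGTTA
They made up 46.9%, 32.9%, 10.1%, 2.94% and 2.46% of miR-7b-5p. The RefSeq mature sequence of miR-7b-5p is 24 nt long, so the same 24 nt end counts as exact for miR-7b-5p and as extended by 1 base for miR-7a-5p, and the shares of trimmed and extended reads are not compared between them.

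Weighted by CPM, the mean read length was 23.3 nt for both miR-7 guides, and 2 of 463 miRNAs had longer reads than miR-7a-5p and 5 had longer reads than miR-7b-5p. The median over the 463 miRNAs was 21.8 nt. Reads of 24 nt or more made up 53.8% of miR-7a-5p and 50.2% of miR-7b-5p, against a median of 1.28%. miR-671-5p was also long, with a mean of 23.0 nt, 12 miRNAs longer and 41.8% of its level in reads of 24 nt or more, while miR-671-3p, from the other arm of its hairpin, had a mean of 21.4 nt with 362 miRNAs longer. In single libraries, with 10 to 506 reads of miR-671-5p each, the share of its 24 nt reads ran from 14.3% to 59.5%. The passenger strand miR-7a-1-3p had a mean length of 21.5 ± 0.05 nt (SD, n = 8).

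**Figure D3:**
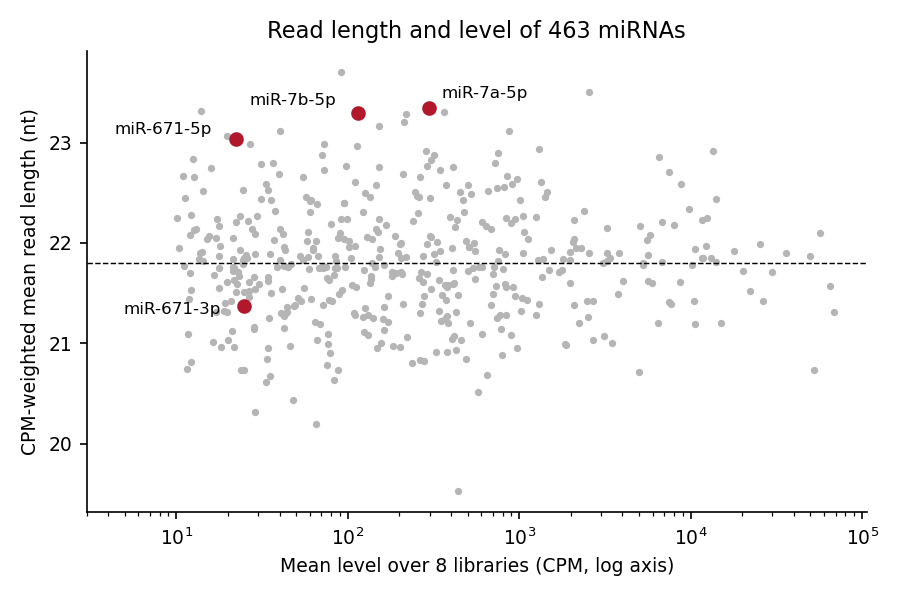
CPM-weighted mean read length (nt) of the 463 tested miRNAs against their mean level over 8 libraries (CPM, log axis), with the 4 members in red and the median length of 21.8 nt as a dashed line. Both miR-7 guides and miR-671-5p lie near the top of the length range, and miR-671-3p lies below the median.

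Added bases that could be told from the hairpin sequence were a small part of the miR-7 reads. Reads with a tail of 1 to 3 bases that the hairpin does not encode were 3.18% of miR-7a-5p and 3.36% of miR-7b-5p, below the median of 9.58% over the 369 miRNAs placed on a hairpin, of which 299 and 296 had a higher share. Of the tails, 87.8% by CPM were A only for miR-7a-5p and 94.6% for miR-7b-5p. The base after the mature sequence of miR-7a-5p is itself a T in the hairpin. The last base of its 24 nt read, 50.0% of miR-7a-5p, is at that position, so a template base and an added U there could not be told apart, and the tailed share leaves such reads out. The miR-671 arms had more tails by CPM, 14.9% for miR-671-5p, of which 65.5% were T only, and 16.5% for miR-671-3p, of which 52.6% were A only and 43.2% T only. Counted as reads, T only tails were fewer, 68 of 147 for miR-671-5p and 54 of 183 for miR-671-3p. In single libraries tailed reads ran from 0 of 28 to 3 of 10 for miR-671-5p and from 1 of 47 to 5 of 18 for miR-671-3p. Reads that started at another base than the mature sequence were 0.573% of miR-7a-5p, 1.86% of miR-7b-5p, 0 of 886 reads of miR-671-5p (which allows up to 0.339%) and 0.662% of miR-671-3p, against a median of 2.93%. The share of miR-7b-5p rested on Rubicon+/- replicate 1, with 6 of 67 reads, and was 0.702% without it, and that of miR-671-3p was 0.245% without Rubicon-/- replicate 1, both left out after the data were seen.

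**Figure D4:**
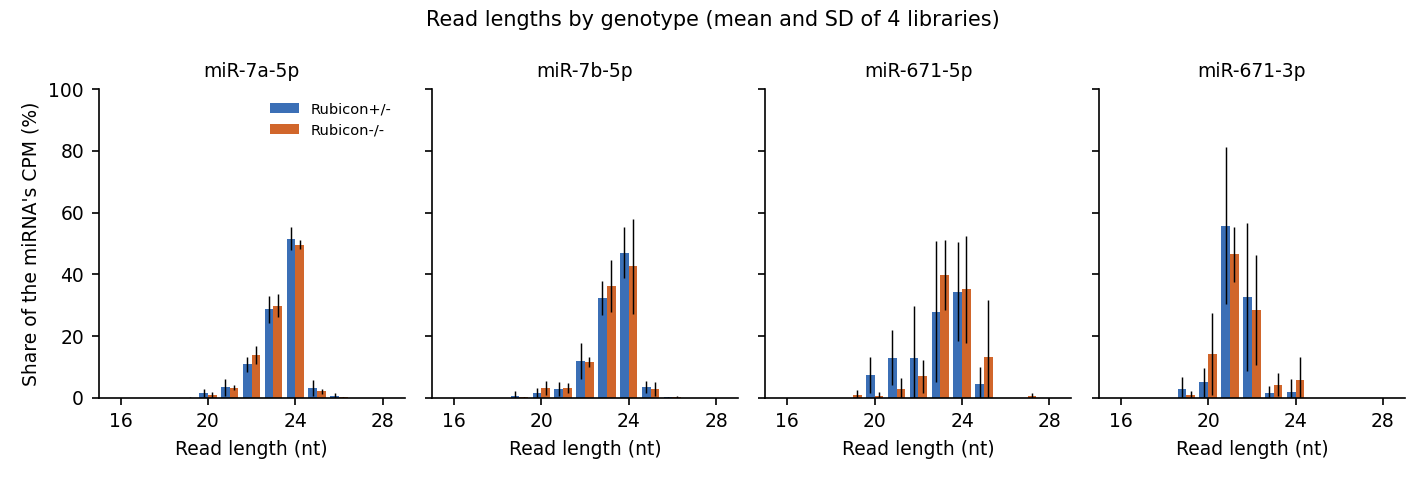
Share of each member's CPM (%) at each read length (nt), as bars of the mean with the SD of 4 libraries for each genotype. The miR-7 guides and miR-671-5p reach to 24 nt in both genotypes, miR-671-3p peaks at 21 nt, and the error bars of the genotypes overlap at 23 and 24 nt for the first 3 members and at 21 nt for miR-671-3p.

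The 5 leading reads of miR-671-5p are given for its ends, again with the bases after base 20 in capitals.
miR-671-5p read 1: aggaagccctggaggggctgGAG
miR-671-5p read 2: aggaagccctggaggggctgGAGG
miR-671-5p read 3: aggaagccctggaggggctgGA
miR-671-5p read 4: aggaagccctggaggggctgG
miR-671-5p read 5: aggaagccctggaggggctgGAGT
The first 3 made up 28.0%, 25.2% and 11.7% of miR-671-5p and the fifth 7.52%, and the last base of the fifth, T, is not in the hairpin. For miR-671-3p the leading reads were the 21 nt mature sequence (46.5%), the same with 1 more template base (26.8%) and the same with 1 base less (8.07%). The fourth ended in an added A (6.63%) and the fifth in a T in place of the last mature base (0.898 CPM).

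Between genotypes, 1 of the 20 end measures separated the libraries. Reads of miR-671-5p that stop before the mature end made up 37.5%, 28.6%, 32.7% and 34.0% in Rubicon+/- libraries, and 13.4%, 21.3% and 0% in replicates 1 to 3 of Rubicon-/-. In Rubicon-/- replicate 4 it was 1 of 10 reads. All Rubicon-/- libraries were below all Rubicon+/- libraries, with a difference of means of -22.0 percentage points (exact permutation p = 0.0286, the smallest that 70 splits allow, adjusted p = 0.571 over the 20 measures), so it did not pass the threshold, which a single separated measure among 20 cannot reach. Among 362 miRNAs measured in the same way, 9 (2.49%) had groups of trimmed shares that did not overlap. Few reads stood behind these shares: 6 of 16, 8 of 28, 17 of 52 and 35 of 103 reads in Rubicon+/-, and 18 of 134, 108 of 506, 0 of 37 and 1 of 10 in Rubicon-/- libraries. The share of 0 of 37 reads allows up to 8.11%, and the 95% Wilson interval of 1 of 10 reads, 1.79% to 40.4%, reaches over all 4 Rubicon+/- values. The mean length of miR-671-5p was 22.8 ± 0.39 nt in Rubicon+/- and 23.5 ± 0.46 nt in Rubicon-/- libraries (SD, n = 4 each, exact permutation p = 0.114, adjusted p = 0.762). The difference, 0.64 nt, was 1.03 nt without both libraries over 5000000 reads and 0.497 to 0.825 nt with single libraries left out.

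**Figure D5:**
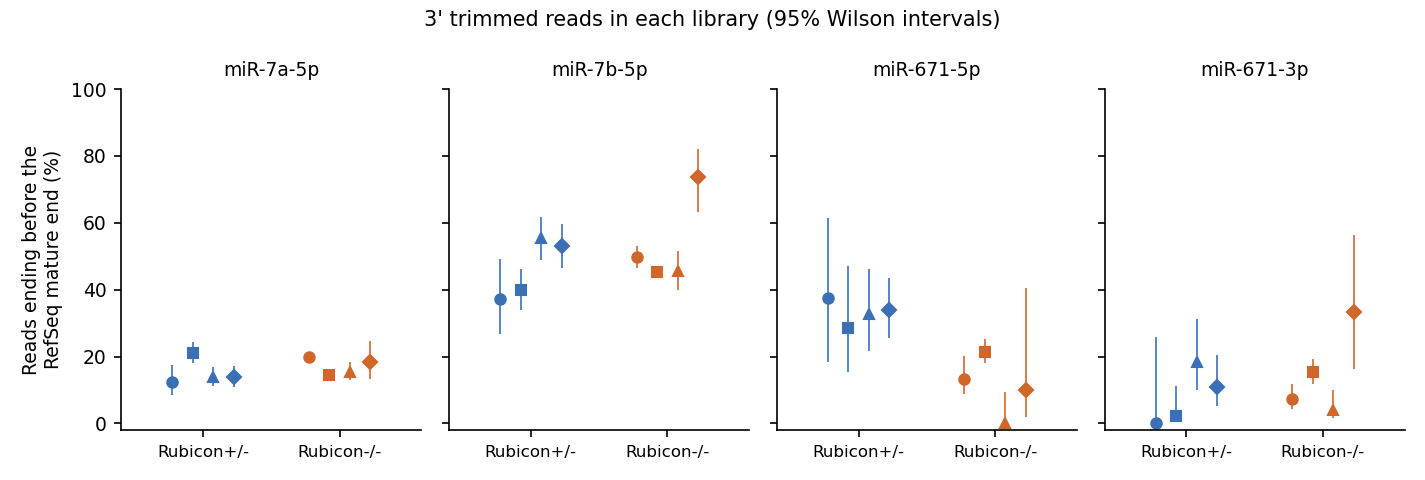
Share of reads that end before the RefSeq mature end (%) for each member, 1 point per library with its 95% Wilson interval, by genotype. For miR-671-5p all 4 Rubicon-/- points lie below the 4 Rubicon+/- points with wide intervals, and for the other members the genotypes overlap.

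The ends of the miR-7 guides did not pass the test between genotypes. Nearest to the threshold was the share of miR-7a-5p reads with a shifted start, 0.345 ± 0.462% in Rubicon+/- and 0.886 ± 0.269% in Rubicon-/- libraries (SD, n = 4 each, exact permutation p = 0.0857, adjusted p = 0.762). These shares rested on 0 of 202, 1 of 664, 6 of 585 and 1 of 492 reads in Rubicon+/- libraries. In Rubicon-/- libraries they rested on 24 of 2213, 56 of 7415, 8 of 706 and 1 of 175 reads. Without Rubicon+/- replicate 3 the exact permutation p was 0.0286, the smallest that 35 splits allow (adjusted p = 0.571). With any other single library left out the exact permutation p was 0.0857 to 0.2. Trimmed reads of miR-7b-5p were 46.4 ± 9.14% and 53.6 ± 13.6% (exact permutation p = 0.457, adjusted p = 0.762), a difference of 7.22 percentage points that was 0.502 points without Rubicon-/- replicate 4. Tailed reads of miR-7a-5p were 3.61 ± 1.65% in Rubicon+/- and 2.79 ± 1.18% in Rubicon-/- libraries (SD, n = 4 each, exact permutation p = 0.514, adjusted p = 0.786), and trimmed reads 15.3 ± 3.93% and 17.0 ± 2.45% (exact permutation p = 0.457, adjusted p = 0.762). Its mean length was 23.4 ± 0.15 nt and 23.3 ± 0.04 nt (exact permutation p = 0.457, adjusted p = 0.762), a difference of -0.07 nt. Without Rubicon+/- replicate 1 the difference in tailed reads, -0.82 percentage points, was -0.044 points and that in mean length -0.0090 nt. Tailed reads of miR-7b-5p were 3.69 ± 1.79% and 3.42 ± 2.13% (exact permutation p = 0.771, adjusted p = 0.889). Of the 67 member sequences, 8 reached a mean level of 10 CPM and entered the fit of single reads, 4 of miR-7a-5p, 3 of miR-7b-5p and 1 of miR-671-3p. limma called 0 of these 8 and 16 of all 3299 reads tested (0.485%, all lower in Rubicon-/-), and none of the 8 had an unadjusted p under 0.05, against 175 of 3299 (5.3%).

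Each guide carries a 6mer seed viability, the mean viability (score, in %) of 3 mouse cell lines given an siRNA with the seed of bases 2 to 7, in which low values mark toxic seeds. The seed GGAAGA of both miR-7 guides had a score of 50.9, and 1119 of the 3427 seeds in the table (32.7%) scored lower. miR-7a-5p and miR-7b-5p supplied 99.9% of the 410 CPM that carried this seed, 72.3% and 27.6% of it. The seed GGAAGC of miR-671-5p scored 11.4, with 76 of the 3427 seeds (2.22%) and 7 of the 463 tested miRNAs lower. miR-671-5p supplied 97.7% of the 22.7 CPM with that seed. miR-671-3p, with the seed CCGGUU, scored 66.9.

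The transcripts of the circuit were read from the reference only, since the table held few or no fragments of them. Of the 47204 sequences, 5 lay in Cyrano, all of them repeats of 2 letters, and 0 lay in the Cdr1as window used here. The Cyrano transcript (annotated as 1700020I14Rik, 8300 nt) holds 2 matches to GTCTTCC, the complement of the miR-7 seed, and 1 of them has further pairing. That site is at chr2:119602136-119602161 on the plus strand (GRCm38) and is shown with the bases that pair with miR-7 in capitals.
Cyrano site: AACAACAAAATCACcaatGTCTTCCA
It pairs with bases 1 to 8 and 11 to 24 of the 24 nt miR-7a-5p read, 22 pairs in all, with 2 guide bases and 4 Cyrano bases unpaired between both stretches. Base 10, the only one at which miR-7a-5p and miR-7b-5p differ, is in the unpaired part, and the base in which the 24 nt read exceeds the RefSeq sequence of miR-7a-5p is paired. The strand opposite the Cdr1 transcript, which is the strand of Cdr1as and here stands for a stretch of it, holds GTCTTCC 79 times in 1554 nt (chromosome X, 61184005 to 61185558, GRCm38). Among the strands opposite 5060 other transcripts within 100 nt of that length, 22.8% held the motif at all and the highest count was 12. This window is the span of the Cdr1 transcript only, and the rest of Cdr1as was not searched. GGCTTCC, the complement of the miR-671-5p seed, was not in the letters of this window, which says nothing of a miR-671 site elsewhere in Cdr1as.

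Other miRNAs for which a transcript is known to direct degradation were fixed as a list from general knowledge: miR-29b-3p, miR-30b-5p, miR-30c-5p, miR-322-5p, miR-503-5p and miR-335-3p. As for the members, 0 of 6 passed the limma test between genotypes, with log2 differences of -0.91 to 0.04 and adjusted p of 0.613 to 0.999. The largest differences were those of miR-503-5p, -0.91 (SE 0.44), and miR-29b-3p, -0.70 (SE 0.33). Only miR-322-5p, at 188 to 210 CPM in Rubicon+/- and 91.9 to 182 CPM in Rubicon-/- libraries, had groups that did not overlap, as did 16 of the 463 miRNAs (3.46%). The mean lengths of the 5 of these that could be placed, from 21.2 nt for miR-322-5p to 22.9 nt for miR-30c-5p, were all below that of the miR-7 guides.

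By Pearson r of log2(CPM + 1) over the 8 libraries, the pattern of miR-7a-5p was most like those of miR-7b-5p (r = 0.98), miR-98-3p (0.96) and miR-380-5p (0.88) among 462 other miRNAs, and that of miR-7b-5p like those of miR-7a-5p, miR-487b-3p (0.93) and miR-98-3p (0.93). The miRNAs most like miR-671-5p were miR-339-3p (0.88), miR-194-5p (0.86) and miR-27a-3p (0.79), and those most like miR-671-3p were miR-486a-5p with miR-486b-5p (0.94), which the table gives under a joint name, miR-409-3p (0.93) and miR-3547-3p (0.92). These miRNAs were picked as the highest of 462 values, so they are a description with no test, and all points share their library. The levels of the members had r of -0.13 to 0.17 with the log10 of depth.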

How the data were processed

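Ago-bound small RNAs of 8 mouse brains were analysed from 1 table made by the authors with their SPOROS pipeline, which lists each read sequence with its name and its 6mer seed viability, a deposited score from an earlier screen that was not measured in these mice. The deposited values are CPM, scaled by the authors to reads per 1000000 reads of each library. The processing notes name Trim Galore, and the genome build and the version of Trim Galore are not given in the sources used here. Sequences with fewer than 8 reads over the 8 libraries are not in the table, which drops rare ends more often in shallow libraries, and scaling to a fixed total makes each level relative to the rest of its library.

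CPM were summed per name. 100% of values were whole multiples of 1 read (tolerance 0.002 CPM), which gave depths of 509839 to 19878054 reads and 1 read as 0.0502 to 1.93 CPM. Wilson intervals (95%) and limits of 3 reads cover counting error only, as the reads had no molecular identifiers. Groups and replicate numbers came from the sample titles. miRNAs and single reads at a mean level of 10 CPM or more were compared with limma 3.58.1 (trend, robust, R 4.3.3) on log2(CPM + 1), with Benjamini-Hochberg adjustment over all features. A fold change on this scale understates the change of scarce RNAs. edgeR 4.0.16 (quasi-likelihood) and DESeq2 1.42.0 on recovered reads were alternatives. Ratios (4) and end measures (20) were compared by two-sided exact permutation over 70 splits, adjusted within each family, and correlations by exact permutation of the pairings. Reads were placed on RefSeq hairpins by their longest exact stretch of at least 12 bases from the first base and called trimmed, exact, extended or tailed (at most 3 bases) against the mature end, and reads starting elsewhere were counted apart. The limma fit was also run on simulated counts, with no change or with changes larger than those of the members. That run does not measure its power for the members. Python 3.11.15, numpy 2.4.6, scipy 1.17.1, pandas 2.3.3 and matplotlib 3.10.9 were used. The reference was GENCODE M21 and RefSeq (GRCm38).

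The text names the 4 members, the miR-7 passenger strands, the 5 most abundant reads of each member, the 3 miRNAs with the highest r for each and the list of other miRNAs under directed degradation. Members, lists and tests were chosen with earlier results of these data known. Alternatives were a pseudocount of 0.1 or 10, filters at 1 and 100 CPM, median centring, the replicate block, leaving out each library or the 2 over 5000000 reads, other reference ends and subsets of reads. miRNAs of choroid plexus (2402 to 4679 CPM in Rubicon+/- and 2123 to 4501 CPM in Rubicon-/- libraries), blood (1724 to 3126 and 701 to 2220 CPM), leukocytes (2558 to 3991 and 2430 to 4528 CPM), oligodendrocytes (8093 to 14384 and 4360 to 8591 CPM) and endothelium (6038 to 11056 and 6112 to 11931 CPM) were summed as markers, and of the blood list 2 of 3 miRNAs were found under their own name.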

Additional observations from a re-analysis of the deposited data

Results flagged for a closer look

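Over the levels, ratios and end measures of the members, the highest and lowest library of each genotype were compared with the other 3 by Dixon's test at 95%, in 51 groups of 4 libraries whose values vary. In 2 groups a library stood apart, and about 1 group in 20 is marked by chance. The share of trimmed miR-7a-5p reads in Rubicon+/- replicate 2 was 21.1%, with the nearest of the other Rubicon+/- libraries at 13.8%. The share of trimmed miR-7b-5p reads in Rubicon-/- replicate 4 was 73.7%, with the nearest of the other Rubicon-/- libraries at 49.8%. Rubicon-/- replicate 4 had 80 reads of miR-7b-5p.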

How the results depend on the processing

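Of 316 alternatives to the 26 levels, ratios and end measures that have a direction, 20 turned it. None of the 4 levels passed a limma adjusted p of 0.05 under its alternatives. For ratios and ends the p says nothing about stability, since a single end measure with separated groups has an adjusted p of 0.571 over the 20 measures and 4 libraries against 2 give no p below 0.0667. On centring by the median, which moves the median log2 difference of all 463 miRNAs from -0.09 to 0.13, miR-7a-5p differed by 0.11 and miR-7b-5p by 0.22. For miR-7b-5p edgeR gave 0.10 and DESeq2 0.12. The log2 ratio of miR-7a-5p to miR-7b-5p differed between genotypes by 0.072 when taken from the most abundant read of each. The cause of these turns was not tested. Leaving out single libraries gave log2 differences of -0.34 to 0.11 for miR-7a-5p and -0.16 to 0.18 for miR-7b-5p, above 0 without Rubicon+/- replicate 1 or 2 or Rubicon-/- replicate 4, -0.87 to -0.44 for miR-671-5p, and -0.25 to 0.16 for miR-671-3p, below 0 without replicate 1 or 3 of Rubicon+/- or replicate 3 of Rubicon-/-. With both libraries over 5000000 reads left out, the log2 differences were -0.37 for miR-7a-5p, -0.22 for miR-7b-5p, -1.01 for miR-671-5p and 0.20 for miR-671-3p (limma adjusted p of 0.614 to 0.951). With single libraries left out, differences in end measures ran from -1.22 to 0.50 percentage points for tailed miR-7b-5p (above 0 without Rubicon+/- replicate 1 or Rubicon-/- replicate 3), -0.14 to 0.032 nt for its mean length (above 0 without Rubicon-/- replicate 4), -0.035 to 12.2 points for extended miR-671-5p (below 0 without Rubicon-/- replicate 3), -14.2 to 7.81 points for extended miR-671-3p (above 0 without Rubicon+/- replicate 2) and -0.0029 to 0.18 nt for its mean length (below 0 without Rubicon+/- replicate 1). Without both libraries over 5000000 reads, extended miR-671-5p differed by 16.3 points and the mean length of miR-7b-5p by -0.16 nt. Of the log2 ratios, miR-7a-5p to miR-671-5p differed by 0.17 to 0.94 and miR-7b-5p to miR-671-5p by 0.35 to 1.03, lowest without Rubicon+/- replicate 4 and highest without Rubicon+/- replicate 2, and miR-671-5p to miR-671-3p by -1.06 (without Rubicon-/- replicate 2) to -0.43 (without Rubicon-/- replicate 3). Both libraries over 5000000 reads left out gave -1.27 for this. For miR-7a-5p, tailed reads differed by -1.27 to -0.044 points and mean length by -0.12 to -0.0090 nt, both nearest 0 without Rubicon+/- replicate 1, and trimmed reads by 0.738 to 3.64 points, lowest without that library and highest without Rubicon+/- replicate 2. Trimmed miR-7b-5p differed by 0.502 (without Rubicon-/- replicate 4) to 10.2 points, and by 13.3 points without both libraries over 5000000 reads. For trimmed miR-671-5p the range was -25.4 to -18.3 points, and it was -28.2 points without both libraries over 5000000 reads, with adjusted p of 0.571 to 0.781 over its alternatives.

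Same-numbered libraries come from different mice, and the correlations of their deviations were 0.04, 0.29, -0.18 and 0.25, so the replicate numbers were not taken to pair the samples. With the number as a replicate block, 10 miRNAs in place of 6 were called and 26 single reads in place of 16, with 0 member reads and 0 members among them, and the sign-flip test of ratios and ends can then give no p below 0.125. DESeq2 called 27 single reads, a mean of at least 1 CPM 35, a mean of at least 100 CPM 5, and the fits without both deep libraries or Rubicon+/- replicate 2 or 4 called 9, 10 and 9, with 0 members.

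Both miR-671 strands are under 100 CPM, so the stricter filter gave them no value. No miR-671-5p read and only the 21 nt read of miR-671-3p was seen in every library, so neither had end measures from such reads, nor had shifted starts of the miR-7 guides, and the most abundant reads gave no ratio with miR-671. Depth limits miR-671 ends most, with 10 to 506 reads of miR-671-5p per library.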

Other observations

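The table also held reads of miR-7a-5p with 1 changed base, counted from the 5′ end. A5G occurred in 3 sequences with 60 reads in 5 libraries, 0.482% as many as the reads named miR-7a-5p, and the most frequent of these lengths are shown with the changed base in capitals.
A5G, 24 nt: tggaGgactagtgattttgttgtt
A5G, 23 nt: tggaGgactagtgattttgttgt
They carry the seed GGAGGA, with a viability score of 18.9, and the table gives them no miRNA name, so they were not counted among the members. T12C, also without a miRNA name, had 10 reads in 3 libraries. G2A, with 9 reads in 4 libraries, is named miR-7a-5p and is 1 of the 25 sequences of that member. Changes in the last 4 bases were not searched. Whether these letters come from the RNA or from sequencing was not tested. A further 14 sequences, 4.48 CPM in sum, lay on the miR-7 and miR-671 hairpins without the name of a mature strand.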
